A study of Mus musculus with 6 samples.

Results

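The intraflagellar transport (IFT) particle genes were followed through testes of Kifc1 knockout and wild-type mice. They are 10 genes taken by symbol from a list, which was drawn up with earlier results of these data known but sets no threshold on a measured value: Ift20, Ift27, Ift52, Ift57, Ift74, Ift81, Ift88, Ift172 and Hspb11, which encode subunits of the IFT-B complex, and Ift140, which encodes a subunit of the IFT-A complex. All 10 were found among the 51826 gene identifiers of each sample, and all 10 were among the 21518 genes with enough counts to be tested.

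IFT particles are trains of protein complexes that move along the microtubules of a cilium or flagellum. IFT-B trains are carried outwards by kinesin-2 motors and bring tubulin and other building material to the growing tip, while IFT-A and the dynein-2 motor serve the return to the base. In the testis these proteins are found in spermatids, where they take part in building the sperm tail and are also seen on the manchette, a transient skirt of microtubules around the elongating nucleus. Kifc1 encodes a kinesin-14 motor that moves towards microtubule minus ends and is not itself an IFT motor.

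RNA from testes was sequenced and counted per gene in 3 samples of Kifc1 knockout and 3 of wild type, all C57BL/6J mice at an age of 8 weeks. The series title concerns meiotic recombination and male fertility, and its design text names the comparison of testis transcripts between both genotypes. How the knockout allele was made, and whether it acts in all cells, is not given in the sources used here. Whether each sample is a separate animal is not stated either, so the spread behind the p-values is that between samples and may be technical. Knockout libraries held 32129093 to 38169198 counts and wild-type libraries 29274603 to 38703606. Values are TMM-scaled counts per 1000000 counts (CPM), group values are means ± SD of 3 samples, and a log2 fold change above 0 means more in knockout than in wild type.

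The samples carried their labelled genotype. Kifc1 stood at 0.326, 0.737 and 0.282 CPM in knockout and at 15.5, 16.1 and 14.7 CPM in wild type (log2 fold change -5.09, SE 0.35, edgeR quasi-likelihood adjusted p 0.00378). The libraries also differed in ways the genotype label does not name. Mitochondrial transcripts took 1.54% to 5.74% of the counts in knockout and 0.661% to 0.935% in wild type. Knockout libraries were shifted towards AT-rich genes and wild-type libraries towards GC-rich ones. Over 12751 genes, the Spearman correlation between GC content and a library's deviation from the mean ran from -0.667 to -0.12 in knockout and from 0.244 to 0.526 in wild type, with knockout sample 2 the farthest from 0. Each change of a member is therefore given as counted and, where it matters, after removal of these trends with GC content and length. The GC trend had the opposite sign in every library of the other genotype. Its removal also takes out any genotype effect that runs with GC content, and the design cannot tell them apart.

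Promoters of ciliary genes often hold an X-box, the site bound by RFX transcription factors. GTTGCC, a part of that site that is called the core here, was looked for on both strands. The window ran from position -250 to 50 around the start of the gene in RefSeq (GRCm38.p6). A match to this part alone is not a full X-box. A promoter was at hand for 9 of the 10 members, Ift81 being the exception. The core was present in 5 of these 9, in 20 of 49 promoters of 45 other transport genes (40.8%), and in 4111 of all 32851 promoters (12.5%). A match describes these letters and does not show binding. For each of the 5, 1 match is printed 5′ to 3′ on the gene's strand, with the core in capitals, because the core groups the members by promoter. The 120 bases around the start of Ift74, the member with the largest change, are printed beside these: they hold no core, and their capitals mark the first 20 transcribed bases.
Ift172, chr5:31291097-31291126, minus strand: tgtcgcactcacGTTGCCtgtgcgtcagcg
Ift27, chr15:78174073-78174102, minus strand: gggttgatgatgGTTGCCaggagcctgttt
Ift57, chr16:49699195-49699224, plus strand: gaggcgggtctgGTTGCCgtggtgaccggc
Ift88, chr14:57424080-57424109, plus strand: ggagtcgcgcctGGCAACggctgggcgtcc
Ift140, chr17:25015965-25015994, plus strand: gcgtgttgtgacGGCAACctcgcgcccttg
Ift74, chr4:94614391-94614510, plus strand: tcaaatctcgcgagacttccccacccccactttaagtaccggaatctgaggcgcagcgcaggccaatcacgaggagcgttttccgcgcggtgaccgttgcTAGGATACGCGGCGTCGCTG
In Ift88 and Ift140 the core lies on the opposite strand and so reads GGCAAC. Counted from 1 at the first transcribed base, its first printed base lies at position 1 in Ift172, at 22 in Ift88, at -9 in Ift27, at -87 in Ift57 and at -109 in Ift140. The core was found both in members that were higher in knockout (Ift57 and Ift88) and in members that were lower (Ift27, Ift140 and Ift172).

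In knockout testes 1 of the 10 members rose and 0 fell, by edgeR's quasi-likelihood test at an adjusted p under 0.05. The gene that rose was Ift74, at 1.75 times the wild-type level. Among all 21518 genes tested, 669 rose (3.11%) and 1101 fell (5.12%), 8.23% in all. By the DESeq2 Wald test, which called 15.4% of all genes, 2 members rose and 1 fell. The direction of the members was mixed: 6 had a log2 fold change above 0, against 49.3% of all genes tested, and the median was 0.19, against -0.01 over all genes tested. In 4 members every knockout sample was above every wild-type sample (Ift57, Ift74, Ift81 and Ift88), and in 2 every knockout sample was below (Ift172 and Ift140). Such gaps without overlap occurred in 14.6% of all genes tested with knockout higher and in 18.1% with knockout lower, 32.7% in all. At an unadjusted p under 0.05 there were 5 members, against 27.1% of all genes tested.

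**Figure D1:**
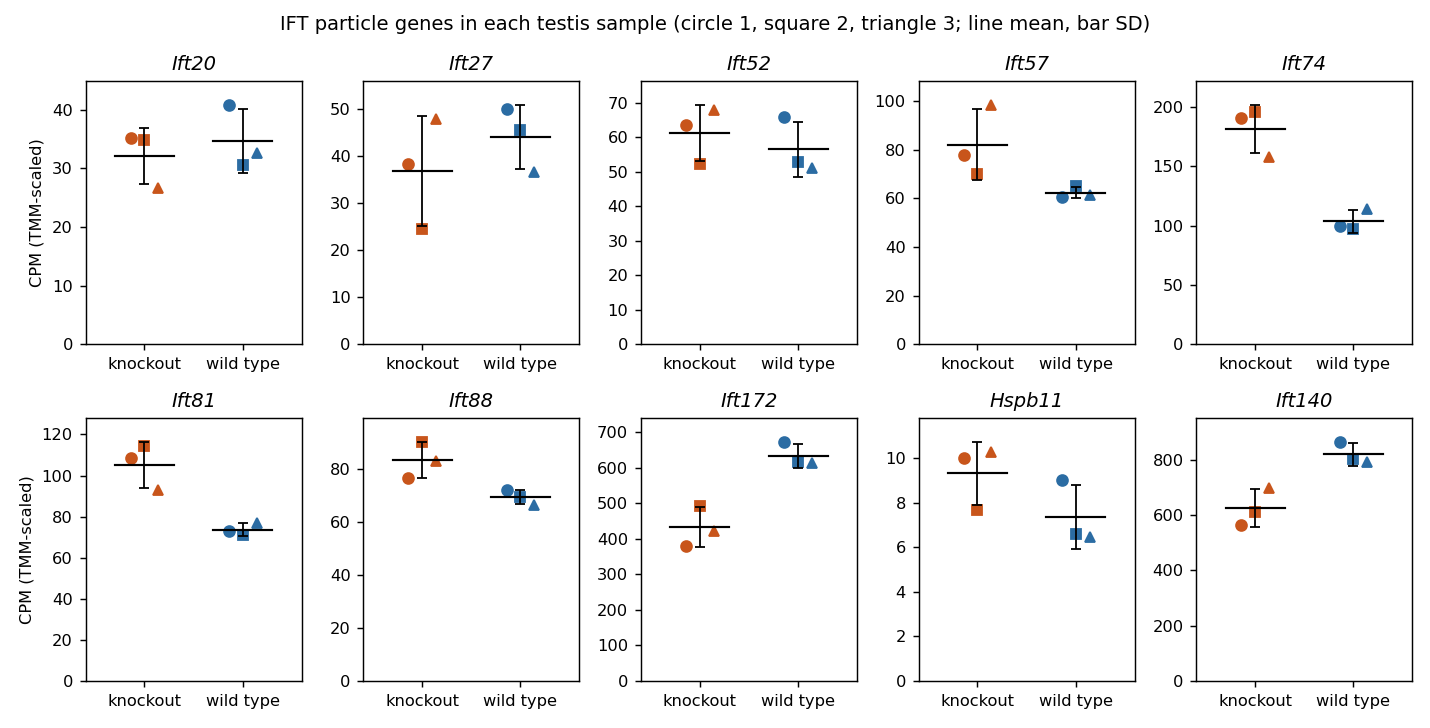
TMM-scaled CPM of the 10 members (vertical axes, each from 0) in the 3 knockout and 3 wild-type samples, with the mean as a line and the SD as a bar. Knockout samples of Ift74 lie between 158 and 195.5 CPM, above wild-type samples between 96.7 and 114.4 CPM, while those of Ift172 lie between 381 and 492.9 CPM, below wild-type samples between 612.3 and 673.2 CPM.

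IFT74 and IFT81 bind each other along a coiled coil, and together their ends form a tubulin-binding module of the IFT-B train. Ift74 (ENSMUSG00000028576, chromosome 4, 94614491 to 94693229, plus strand, GRCm38, protein-coding) stood at 190.5, 195.5 and 158 CPM in knockout and at 99.5, 96.7 and 114.4 CPM in wild type. All 3 knockout samples were far above all wild-type samples. The mean was 181.3 ± 20.4 CPM in knockout and 103.5 ± 9.51 CPM in wild type (log2 fold change 0.81, SE 0.15, edgeR adjusted p 0.0201). Without mitochondrial genes the adjusted p was 0.0203. With the GC and length trends removed the log2 fold change was 0.58 (SE 0.15) and the call was lost (adjusted p 0.0861). With the trends removed and without knockout sample 2, a fit added after seeing the data, it was 0.59 (adjusted p 0.0532). As counted, the call was also lost without knockout sample 1 (adjusted p 0.103) and without wild-type sample 1 (0.0696), 2 (0.108) or 3 (0.0508). In those 4 fits the log2 fold change stayed between 0.76 and 0.88, and calls over all genes dropped to 1, 5, 1 and 425.

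Ift81 (ENSMUSG00000029469, chromosome 5, 122550204 to 122614518, minus strand) stood at 108.7, 114.4 and 92.8 CPM in knockout and at 73.0, 70.9 and 77.0 CPM in wild type. The groups did not overlap, and knockout was 1.43 times wild type (105.3 ± 11.2 against 73.6 ± 3.08 CPM). That difference missed the threshold in the edgeR test (log2 fold change 0.52, SE 0.14, adjusted p 0.0573). It passed with the DESeq2 Wald test (adjusted p 0.0133) and among genes of at least 1 CPM in 3 samples (edgeR adjusted p 0.0464, where 11.7% were called). After removal of the trends it was 0.31 (adjusted p 0.18).

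IFT172 is a long subunit at the edge of the IFT-B complex, and with IFT140 of the IFT-A complex it is among the largest proteins of the trains. Ift172 (ENSMUSG00000038564, chromosome 5, 31253277 to 31291116, minus strand) stood at 381, 492.9 and 422.3 CPM in knockout and at 673.2, 616.3 and 612.3 CPM in wild type. Every knockout sample was below every wild-type sample, and the knockout mean was 0.682 times the wild-type mean (432.1 ± 56.6 against 633.9 ± 34.1 CPM). The edgeR test put it just outside the threshold (log2 fold change -0.55, SE 0.15, adjusted p 0.0533). It was inside it without knockout sample 2 (-0.66, adjusted p 0.0157, where 14.3% of all genes were called). With the trends removed and without that sample, a fit added after seeing the data, it was inside too (-0.56, adjusted p 0.0459, with 13.4% called). Without any other single sample it was outside the threshold (edgeR adjusted p 0.112 to 0.203). It was inside it as well by the DESeq2 Wald test (adjusted p 0.0228) and among genes of at least 1 CPM (edgeR adjusted p 0.0493). With all 6 samples and the trends removed it was -0.38 (adjusted p 0.267).

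Ift140 (ENSMUSG00000024169, chromosome 17, 25016085 to 25099495, plus strand), the one IFT-A member, encodes a subunit of the IFT-A core. Its values were 563, 609.8 and 699.2 CPM in knockout and 865, 800.8 and 790.8 CPM in wild type. The groups did not overlap here either, at 0.762 times wild type (624 ± 69.2 against 818.9 ± 40.3 CPM), and the difference did not pass the test (log2 fold change -0.39, SE 0.14, edgeR adjusted p 0.119). Removal of the trends left it at -0.34 (adjusted p 0.255). Tmem204 lies within an Ift140 intron on the other strand, with 634 counts over all samples beside 149577 for Ift140.

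IFT88 and IFT52 sit next to each other in the core of IFT-B, and loss of mouse Ift88 is a classical cause of missing cilia. Ift88 (ENSMUSG00000040040, chromosome 14, 57424062 to 57517936, plus strand) stood at 76.7, 90.4 and 83.0 CPM in knockout and at 72.0, 69.5 and 66.6 CPM in wild type. The groups stood apart by a narrow gap, with no call (83.3 ± 6.84 against 69.4 ± 2.71 CPM, edgeR adjusted p 0.248), and after removal of the trends the log2 fold change was 0.02 (SE 0.12). Ift52 (ENSMUSG00000017858, chromosome 2, 163017354 to 163046141, plus strand) overlapped between the groups, at 63.7, 52.3 and 67.9 CPM in knockout and 65.7, 52.7 and 51.0 CPM in wild type.

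IFT57 and IFT20 belong to the peripheral part of IFT-B, and IFT20 is also found at the Golgi, where it helps send membrane proteins to the cilium. Ift57 (ENSMUSG00000032965, chromosome 16, 49699233 to 49765126, plus strand) stood at 78.0, 69.9 and 98.4 CPM in knockout and at 60.7, 64.9 and 61.2 CPM in wild type. Knockout samples were all higher, and more spread, than wild-type samples (82.1 ± 14.7 against 62.3 ± 2.30 CPM, log2 fold change 0.40, SE 0.16, edgeR adjusted p 0.155). Ift20 (ENSMUSG00000001105, chromosome 11, 78536361 to 78541737, plus strand) stood at 35.1, 34.8 and 26.7 CPM in knockout and at 40.8, 30.6 and 32.6 CPM in wild type. Its groups overlapped, and its log2 fold change of -0.11 (SE 0.18) changed sign when wild-type sample 1 or knockout sample 3 was left out.

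IFT27, a small GTPase related to Rab proteins, and IFT25, the product of Hspb11, form a pair that links IFT-B to the BBSome and to removal of membrane proteins from the cilium. Ift27 (ENSMUSG00000016637, chromosome 15, 78159463 to 78174107, minus strand) stood at 38.2, 24.5 and 47.9 CPM in knockout and at 50.1, 45.5 and 36.6 CPM in wild type. Among knockout samples it varied most of all members, with sample 2 lowest, and its sign depended on the trends: the log2 fold change was -0.26 (SE 0.25) as counted and 0.05 with the trends removed. Hspb11 (ENSMUSG00000063172, chromosome 4, 107253593 to 107279938, plus strand) stood at 10.02, 7.68 and 10.3 CPM in knockout and at 9.01, 6.59 and 6.44 CPM in wild type. Its groups overlapped (log2 fold change 0.34, SE 0.22, edgeR adjusted p 0.356).

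The direction of change ran with base composition. The 5 members with a GC content under 46% (Ift88, Ift74, Ift81, Hspb11 and Ift57) were all higher in knockout. The 3 members above 50% (Ift140, Ift172 and Ift27) were all lower. Between these bounds lay Ift20 (48.1%, log2 fold change -0.11) and Ift52 (48.2%, 0.12). The libraries showed a GC trend of the same direction over 12751 genes. What share of all genes within these bounds went the same way was not counted, so the pattern is not particular to the members. Across the 10 genes, which share the same 6 libraries, Spearman's rho between GC content and log2 fold change was -0.818 as counted and -0.588 with the trends removed. Removal narrowed the span of log2 fold changes to -0.38 to 0.58, against -0.55 to 0.81 as counted. All 5 AT-rich members still had a log2 fold change above 0, but that of Ift88, 0.02 (SE 0.12), lay within its error of 0. Of the 3 GC-rich members 2 were still below 0, Ift172 at -0.38 (SE 0.18) and Ift140 at -0.34 (SE 0.16). Ift27 was at 0.05 (SE 0.20). No member was then called, and over all genes 27 were called (0.125%). How much of the pattern came from the libraries was not tested.

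**Figure D2:**
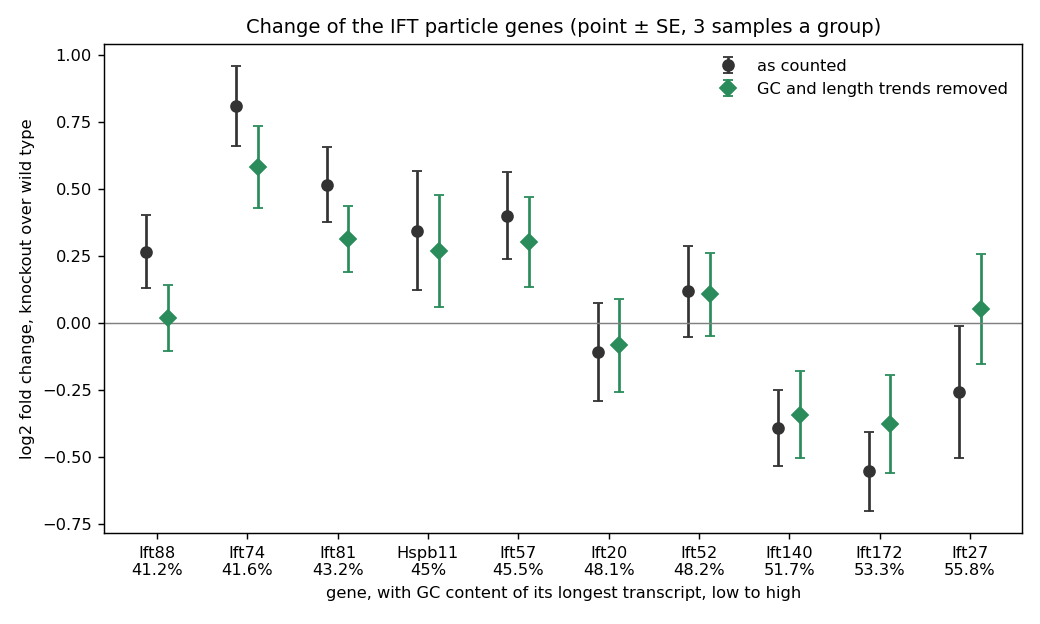
Log2 fold change, knockout over wild type (vertical axis, point ± SE), of the 10 members ordered by the GC content of their longest transcript, as counted (circles) and after the trends with GC content and length were removed from every library (diamonds). Ift74 is highest in both, at 0.81 and 0.58, and Ift172 lowest in both, at -0.55 and -0.38.

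Levels of different members were compared per kilobase of exon. In knockout the order began with Ift140 at 74.9 ± 8.30, Ift74 at 68.3 ± 7.67 and Ift172 at 65.3 ± 8.56 CPM per kilobase, 3 levels whose samples overlapped. In wild type it began with Ift140 at 98.3 ± 4.83 and Ift172 at 95.8 ± 5.15 CPM per kilobase, which overlapped each other, and Ift74 followed at 39.0 ± 3.58, below both without overlap. As counted, Ift74 thus stood level with the most abundant members in knockout and well apart from them in wild type. With the trends removed, Ift74 took 21.7%, 18.3% and 17.2% of the members' summed level in the knockout samples. Ift140 and Ift172 together then took 38.6%, 49.0% and 44.2%. Below these, knockout levels ran from 28.7 ± 5.14 (Ift57), which was above Ift52 without overlap, through Ift52, Ift20, Ift88, Ift81 and Ift27, whose neighbours in that order all overlapped, to 4.50 ± 0.69 (Hspb11). Wild-type levels ran through Ift20 (22.7 ± 3.55), Ift57 and Ift52, which overlapped, then Ift27 and Ift88, which overlapped, then Ift81 (12.6 ± 0.53) to Hspb11 (3.55 ± 0.70). Hspb11 was lowest in both groups without overlap, and over all 6 samples the highest member was 21.5 times the lowest, or 18.7 times by the length of the longest transcript. By that length Ift140, Ift74 and Ift172 still led in knockout and Ift140 and Ift172 in wild type, and Hspb11 was still lowest, but the middle of the order changed. Ift81 then came next after the leading 3 in knockout (35.7 ± 3.79 CPM per kilobase, overlapping Ift57 at 31.6 ± 5.65), and lay level with Ift52 in wild type (25.0 ± 1.04 and 25.1 ± 3.58).

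**Figure D3:**
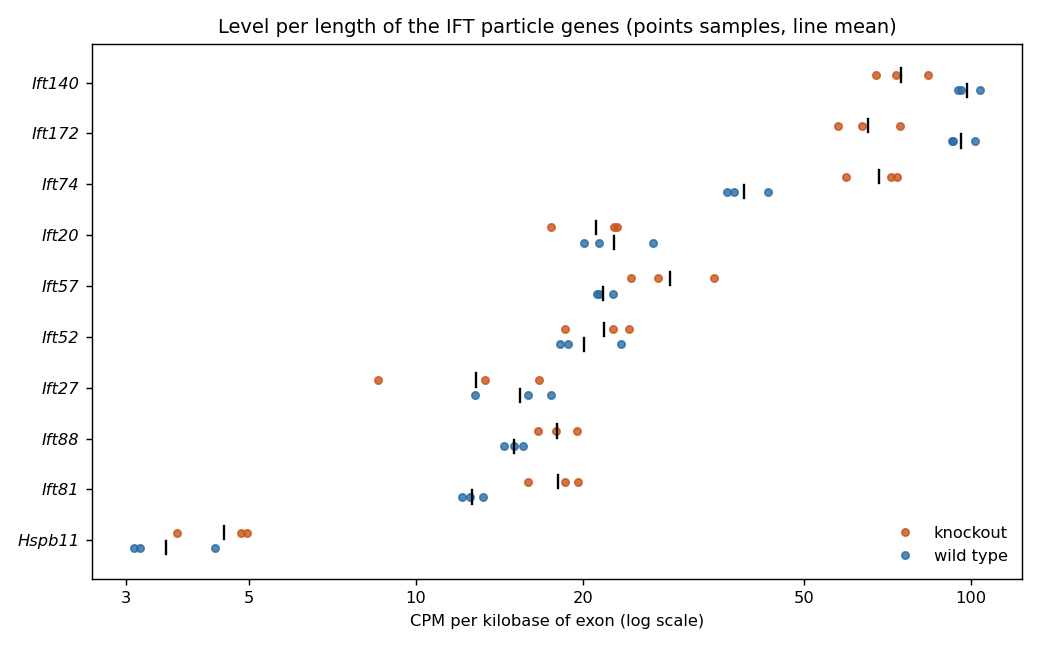
Level of each member in CPM per kilobase of exon (horizontal log axis) in knockout and wild-type samples, with points for samples and a line for the mean. Ift74 lies among the upper 3 genes in knockout, at 68.3, and below Ift140 and Ift172 in wild type, at 39.0.

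The summed level of the 10 members overlapped between the groups, while its makeup did not. The sum was 323.2, 338.5 and 338.8 CPM per kilobase in knockout and 364.3, 333.4 and 334.9 in wild type. Ift140 and Ift172 together made up 38.7%, 43.6% and 43.6% of that sum in knockout, against 56.4%, 56.8% and 56.0% in wild type. Ift74 alone made up 22.2%, 21.7% and 17.6% in knockout, against 10.3%, 10.9% and 12.9% in wild type. Neither share overlapped between the groups, and that held with the trends removed: the pair then took 38.6% to 49.0% in knockout and 51.2% to 58.4% in wild type, and Ift74 took 17.2% to 21.7% in knockout and at most 15.2% in wild type. These members are the highest per kilobase in both groups. Their shares follow from the changes of the same genes given above and are descriptions. Of all single genes tested, 32.7% did not overlap between the groups.

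Ratios between subunits that bind each other were taken within each sample, where scaling between libraries cancels. They are ratios of CPM, so their size depends on gene length and only the difference between groups is compared. For each of 5 pairs, an exact two-sided permutation test of 3 against 3 samples cannot go below p = 0.1. The ratios of Ift74 to Ift81, Ift27 to Hspb11 and Ift20 to Traf3ip1 were at that p. With these at the smallest p, Benjamini-Hochberg adjustment over the 5 pairs gave 0.167. The ratio of Ift74 to Ift81 was 1.75, 1.71 and 1.70 in knockout and 1.36, 1.36 and 1.49 in wild type. Its log2 difference of 0.30 reached that smallest exact p (adjusted 0.167), and removal of the trends left 0.28. The ratios did not overlap between the groups, but a test of this size cannot pass the threshold.

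The ratio of Ift27 to Hspb11 was 3.81, 3.19 and 4.66 in knockout and 5.55, 6.90 and 5.68 in wild type, a log2 difference of -0.65 (exact permutation p = 0.1, adjusted 0.167). With the trends removed a difference of -0.22 was left. IFT20 was set against IFT54, the product of Traf3ip1, another protein of the peripheral part: the ratio of Ift20 to Traf3ip1 was 0.344, 0.339 and 0.22 in knockout and 0.526, 0.379 and 0.378 in wild type, a log2 difference of -0.52 (exact permutation p = 0.1, adjusted 0.167) and of -0.59 with the trends removed. These ratios, too, did not overlap between the groups as counted. How often ratios of other gene pairs do so was not tested, and 32.7% of single genes tested did not overlap. The groups overlapped in the ratio of Ift57 to Cluap1, which encodes its partner IFT38 (log2 difference 0.35, exact permutation p = 0.3, adjusted 0.375), and in that of Ift88 to Ift52 (0.14, exact permutation p = 0.6), whose sign changed without knockout sample 2 or with the trends removed.

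**Figure D4:**
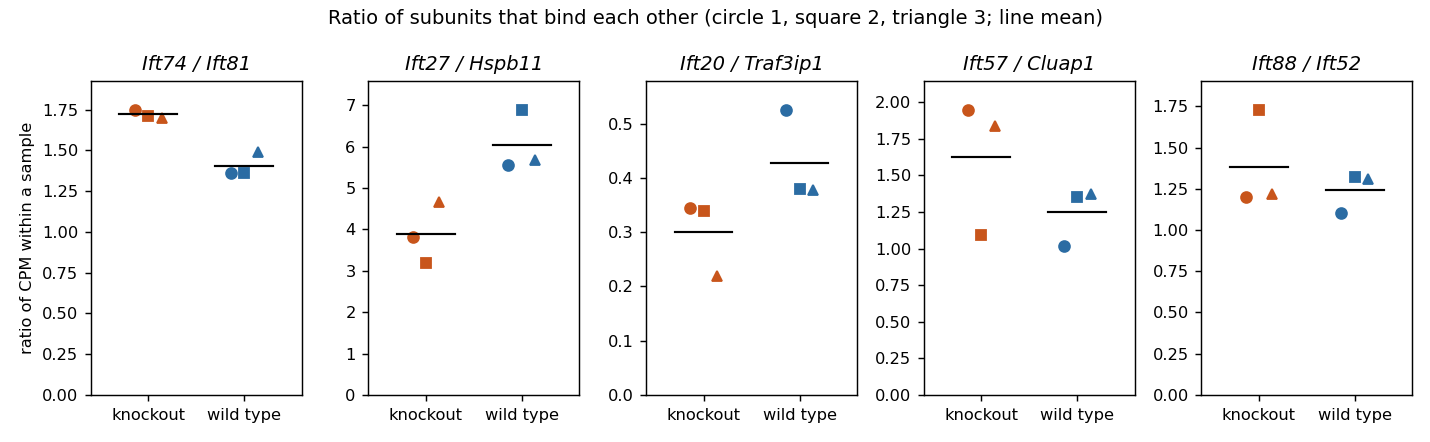
Ratio of CPM within a sample (vertical axes, each from 0) for 5 pairs of subunits that bind each other, in 3 knockout and 3 wild-type samples, with the mean as a line. The ratio of Ift74 to Ift81 lies between 1.70 and 1.75 in knockout, above 1.36 to 1.49 in wild type, and that of Ift27 to Hspb11 lies between 3.19 and 4.66 in knockout, below 5.55 to 6.90 in wild type.

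The other genes of the transport machinery were taken from lists of 51 genes, all of which were tested. Of these, 4 rose and 2 fell in knockout (edgeR adjusted p under 0.05), against 3.11% and 5.12% of all genes tested. The median log2 fold change of the 51 genes was -0.04. No gene was called among the 9 other IFT-B subunits, the 6 other IFT-A subunits or the 5 kinesin-2 genes, and 6 of these 20 had an unadjusted p under 0.05, near the 27.1% of all genes tested. The smallest p in each list belonged to Traf3ip1 (log2 fold change 0.41, SE 0.14, edgeR adjusted p 0.0989), Ttc21a (-0.42, SE 0.14, adjusted p 0.0905) and Kif3a. Kif3a encodes a motor subunit of heterotrimeric kinesin-2, and stood at 90.2 ± 5.75 CPM in knockout and 62.1 ± 6.55 CPM in wild type (0.54, SE 0.14, edgeR adjusted p 0.0548, DESeq2 adjusted p 0.0163).

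Dynein-2, the return motor, held 4 of the 6 calls, 2 in each direction among its 9 genes, where 8.23% of all genes tested were called. Its intermediate chains WDR34 and WDR60, which form a pair on the motor's heavy chains, went opposite ways. Wdr34 stood at 29.8, 28.9 and 40.4 CPM in knockout and at 95.9, 78.3 and 66.6 CPM in wild type (log2 fold change -1.28, SE 0.20, edgeR adjusted p 0.0161). Wdr60 stood at 218.7, 148.4 and 212.7 CPM in knockout and at 98.4, 105.7 and 108.6 CPM in wild type (0.89, SE 0.17, adjusted p 0.0229). The knockout level was thus 0.412 times wild type for Wdr34 and 1.85 times for Wdr60, with no overlap in either.

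Calls also came from light chains that dynein-2 shares with cytoplasmic dynein-1. Dynlrb1 rose to 32.3 ± 9.03 CPM in knockout, against 12.9 ± 1.71 CPM in wild type (log2 fold change 1.32, SE 0.23, edgeR adjusted p 0.0194). Dynll1 fell to 159.2 ± 28.6 CPM in knockout, against 323.4 ± 79.0 CPM in wild type (-1.02, SE 0.21, adjusted p 0.0279). Both have close paralogs, Dynlrb2 and Dynll2, and how reads that fit several places were counted is not given, so these levels are uncertain.

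The remaining calls were Lztfl1, whose product holds the BBSome back from the cilium, and Spef2, which encodes a sperm tail protein known to bind IFT20 in mouse. Lztfl1 rose to 123.6 ± 16.9 CPM in knockout, against 77.4 ± 3.80 CPM in wild type (edgeR adjusted p 0.0318), but with the trends removed its log2 fold change was 0.07, against 0.68 as counted. Spef2 rose to 73.2 ± 6.43 CPM in knockout, against 44.1 ± 0.50 CPM in wild type (adjusted p 0.0216). With the trends removed 1 of the 6 calls held, Dynlrb1 (log2 fold change 1.75, edgeR adjusted p 0.0339). The log2 fold change was then -1.06 for Dynll1 (adjusted p 0.0640), -0.84 for Wdr34 (0.0645), 0.74 for Wdr60 (0.0687) and 0.40 for Spef2 (0.15). With the trends removed and without knockout sample 2, Lztfl1 missed the threshold (edgeR adjusted p 0.606), while the adjusted p was 0.0321 for Wdr34, 0.00584 for Wdr60, 0.0331 for Dynll1, 0.00473 for Dynlrb1 and 0.0416 for Spef2. No gene of the 6 stayed called in every fit that left out 1 sample. Without knockout sample 1 or wild-type sample 1 or 2, only 1, 5 and 1 of all genes were called. Hardly any gene could therefore stay called in every such fit. All 6 kept their direction in each of them.

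**Figure D5:**
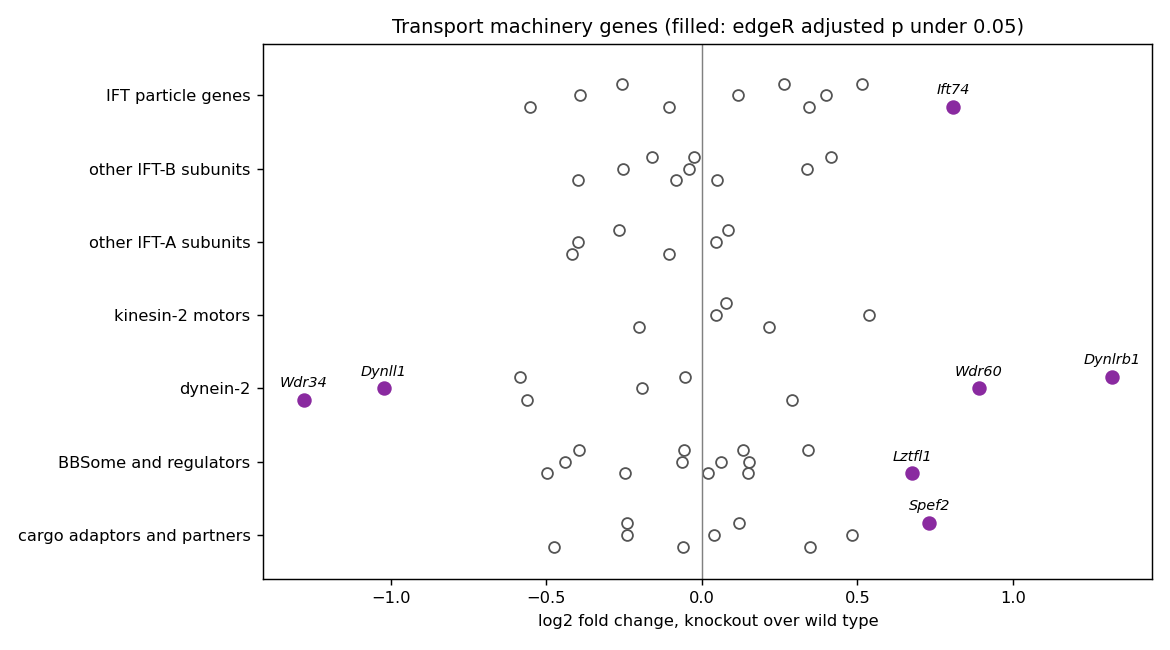
Log2 fold change, knockout over wild type (horizontal axis), of the 10 IFT particle genes and of 51 other transport genes by list, with 1 point per gene and filled points for an edgeR adjusted p under 0.05. Ift74 is filled at 0.81, and dynein-2 holds filled points on both sides, from Wdr34 at -1.28 to Dynlrb1 at 1.32.

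Each member was also compared with the other 60 genes by the root mean square difference of log2 CPM across the 6 samples, each gene centred on its own mean. Ift74 was most like Lztfl1 (0.134), Ift81 (0.154) and Spef2 (0.168). Ift140 was most like Ift122 (0.073), which encodes another IFT-A subunit, and Ttc21a (0.081). Ift172 was most like Arl6 (0.0766), which encodes the GTPase that recruits the BBSome, and again Ttc21a (0.0826). The nearest gene to Ift57 was Traf3ip1 (0.0925), and Ift88 lay closest to Bbs7 (0.0756). These distances carry the library trends and both genotypes, and are descriptions.

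In whole testis, fewer cells of a type and less RNA per cell cannot be told apart. Markers of elongating spermatids summed to 12704 to 14348 CPM in knockout, below 17595 to 19838 CPM in wild type, and 2 of the 6 (Prm1 and Tnp2) fell. Akap4 of this list was higher in knockout (log2 fold change 0.15), while its other markers were lower. Round spermatid markers summed to 841 to 1117 CPM in knockout and 799 to 963 CPM in wild type, with 0 of 6 called. Here Acrv1 and Izumo1 (log2 fold change 0.50 each) were higher in knockout and Tssk1 (-0.58) lower, without overlap, while the others overlapped. Spermatocyte markers summed to 889 to 914 CPM in knockout and 869 to 921 CPM in wild type, where 1 of 6, the synapsis gene Sycp1, rose. The largest part of that sum was Piwil1 (log2 fold change -0.11), and single markers went both ways. Sycp1 (0.90), Hormad1 (0.53, groups without overlap) and Sycp3 (0.44) were higher in knockout. Ccna1 (-0.29), Piwil1 and Spo11 (-0.0035) were lower. Germ cell genes Ddx4 and Dazl, which define the tissue, summed to 431 to 603 CPM in knockout and 436 to 463 CPM in wild type. Among somatic and early cells, no Sertoli or Leydig marker was called, and Sohlh1 of the spermatogonia and Alas2 of the blood fell. Over all genes tested 8.23% were called, and 32.7% did not overlap between the groups. Marker values are as counted, and the called markers moved in the direction of the library GC trends. GC content was 53.3% to 58.5% in the markers that fell and 34.6% in Sycp1, which rose.

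Other ciliated tissue was looked for because IFT genes are high in it. Markers of the multiciliated cells of efferent ducts summed to 561 to 713 CPM in knockout and 533 to 681 CPM in wild type, with 0 of 4 tested called. Most of that sum was Tekt1 and Deup1, which the testis also expresses, and 3 of 4 epididymis markers had 0 counts in every sample. The part of cell makeup in the values of the IFT particle genes was not tested.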

How the data were processed

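RNA from 3 Kifc1 knockout and 3 wild-type testes was analysed from the deposited raw counts per gene, which are whole numbers without any normalization. The submitters' processing notes name Trimmomatic, HISAT2, HTSeq and mm10, without versions. Not given in the sources used here are the annotation release, the strand setting and the handling of multimapping reads. Overlapping and antisense genes therefore cannot be told apart by counts. GENCODE M21 (GRCm38) matched 51633 of 51826 identifiers, 193 stayed without a symbol, and 0 rows named no gene. At these depths 3 counts equal 0.0775 to 0.102 CPM, a floor for counting error only. Chi-square per degree of freedom between samples of a group ran from 15.4 to 135.1, so no pair was treated as 1 library.

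All genes were fitted with edgeR 4.0.16 (R 4.3.3, quasi-likelihood test, TMM scaling, filterByExpr, no covariate), and a gene was called at an adjusted p under 0.05 (two-sided, Benjamini-Hochberg over all tested genes). Offsets removed each library's trends with GC content of the longest transcript and with exon length, by splines (5 degrees of freedom) that used 12751 genes above a mean log2 CPM of 2. Other alternatives were other scalings and filters, DESeq2 1.42.0, a replicate block, no mitochondrial genes, and each sample left out in turn. Offsets without knockout sample 2 were added after seeing the data. Named were all members, Kifc1, every called gene of the lists and the gene with the smallest p of each, partners in the ratios, and the nearest genes by pattern. Members and lists were chosen with earlier results of these data known.
The full X-box and 1 further promoter match are not reported here.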

Additional observations from a re-analysis of the deposited data

How the results depend on the processing

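Of 160 values for the members under alternatives, 141 kept direction and side of the threshold, 8 were no longer called, 6 became called and 5 changed sign. The count of called genes, 1770 as reported, was 1010 without an expression filter, 3305 with the DESeq2 Wald test, 27 with GC and length offsets, 2958 with the offsets and without knockout sample 2, and 1 to 3149 with 1 sample left out: 1 without knockout sample 1, 3149 without 2, 327 without 3, and 5, 1 and 425 without wild-type sample 1, 2 and 3. Members that rose, 1 as reported, were 2 with the DESeq2 Wald test or at least 1 CPM in 3 samples, 0 with the offsets, with or without knockout sample 2, and 0 to 1 with 1 sample left out. Members that fell, 0 as reported (2 of the 5 at an unadjusted p under 0.05 were lower), were 1 with the DESeq2 Wald test, with at least 1 CPM, or with the offsets and without knockout sample 2, and 0 to 1 with 1 sample left out. Other machinery genes that rose, 4 as reported, were 1 with the offsets and 0 to 5 with 1 sample left out, and those that fell, 2 as reported, were 0 with the offsets, 5 with the offsets and without knockout sample 2, and 0 to 6 with 1 sample left out. Signs changed for Ift20 (log2 fold change 0.048 without wild-type sample 1 and 0.030 without knockout sample 3, from -0.19 to 0.048 with 1 sample left out) and for Ift27 (0.053 with the offsets, 0.037 with offsets and replicate block, 0.22 with the offsets and without knockout sample 2). They also changed for Cluap1 (-0.037 without wild-type sample 3, -0.12 without knockout sample 2, -0.099 with the offsets and without it, from -0.12 to 0.21 with 1 sample left out) and for the log2 ratio of Ift88 to Ift52 (-0.086 with the trends removed, -0.026 without knockout sample 2, from -0.026 to 0.235 with 1 sample left out). The cause was not tested. Deviations from the group mean correlated at -0.475, -0.119 and -0.141 between same-numbered samples, and at -0.194 to 0.422 between the others. The labels state no pairing, and this description of 3 samples a group cannot decide whether there was one. With a replicate block 21 genes were called, 0 members rose and 0 other machinery genes rose or fell, and with block and offsets 7 genes were called, with 0 in each of these groups. The least counted member, Hspb11, had 196 to 369 counts a sample, and 3 samples a group limit the tests.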
